A study of Mus musculus with 45 samples.

Results

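The distal colon of Il10 knockout mice given compound 13 at 30 mg/kg was compared with that of wild-type mice, by RNA sequencing. The libraries under study were the 9 of the first cohort labelled as Il10 knockout with compound 13 at 30 mg/kg, and they were set against the 8 wild-type libraries of that cohort, whose treatment label is none. These 17 libraries were chosen by their labels from 45 in the series. Compound 13 is a code name, and the title of the series names a GPR4 antagonist; GPR4 is a cell surface receptor that is switched on by acid. Another library titled as 30 mg/kg was left out, since its treatment field says 10 mg/kg. The comparison asks how much of the colitis profile is present in the knockout colon under the high dose, and it uses no vehicle library. Genotype, compound and dosing differ together between the groups, so their effects cannot be told apart here. The labels give no age, sex, strain background, time point or sequencing batch, and they do not state that each library is a different animal. The p-values thus refer to the spread among these libraries, part of which may be technical.

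Interleukin 10 is a cytokine that restrains macrophages, dendritic cells and T cells. Mice without it develop colitis driven by T helper cells that answer gut bacteria, in which interferon gamma from T and natural killer cells induces guanylate-binding proteins, chemokines for T cells and antigen presentation, and interleukins 17 and 22 induce antimicrobial proteins and oxidases in the epithelium. The colon wall also holds muscle, nerve, glia, fibroblasts and vessels, and in bulk tissue fewer cells of a type and less RNA per cell cannot be told apart.

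Library totals were 24712538 to 31007363 estimated counts in the knockout and 22682491 to 26410857 in wild type. TMM scaling factors, which correct for the share of each library taken up by its high genes, ran from 0.869 to 0.987 in the knockout and from 1.04 to 1.12 in wild type, without overlap. Pancreatic acinar markers summed to 9124 CPM (counts relative to the TMM-scaled library total) in knockout library 4, 6244 in library 1, 1001 in library 9 and 192 in library 3, and to 8500 CPM in wild-type library 5, against 2.7 to 21.8 CPM in the other 12. Wild-type library 5 also held 468 CPM of hepatocyte markers, and knockout library 2 held 1580 CPM of erythroid and 445 CPM of adipocyte markers. Knockout libraries 1, 3 and 8 had the lowest smooth muscle means. The comparison was also run without the 5 libraries above 100 CPM of acinar markers, and without knockout libraries 1, 3 and 8, here called the reduced sets.

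Il10 itself (chromosome 1, 131019845 to 131024974, plus strand, GRCm38) had 0 counts in all 9 knockout libraries, against 10 counts in wild type, spread over 4 of its 8 libraries. Zero counts over the summed knockout depth allow up to 0.0124 CPM of the total count, with 3 counts over the group as the floor. The pooled wild-type level was 4.09-fold above that floor, a value that leaves out the counting error of the 10 wild-type counts. In the shallowest knockout library the floor is 0.121 CPM, above the pooled wild-type level of 0.0507, so the gene marks the genotype in the group as a whole but not in a single library. Of 106 tested genes within 5 Mb of Il10, 26 were higher and 21 lower, or 44.3%, against 43.9% of all genes, and 6 (5.66%) did not overlap between the groups, against 8.87% of all genes. These were Pigr, Slc45a3, Dstyk, Ppp1r15b, Snrpe and Zc3h11a. Nnt, which is partly deleted in the substrain C57BL/6J, had 33.9, 40.6 and 49.1 CPM in the knockout, against 49.3, 51.5 and 55 CPM in wild type, where each trio of values is the lowest, the median and the highest library of a group. Its transcript was present in every library.

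The colonic label was borne out in each library by abundant Car4, Aqp8, Slc26a3, Muc2, Krt20 and Cdx2. Car4, a carbonic anhydrase of surface colonocytes, had 1328, 1705 and 2786 CPM in the knockout, against 664, 806 and 968 CPM in wild type. Krt20, a keratin of mature surface cells, had 1040.00, 1899 and 3004 CPM in the knockout, against 391, 455 and 539.6 CPM in wild type. Both genes were higher in all 9 knockout libraries than in any wild-type library, by 1.13 ± 0.13 and 2.11 ± 0.18 on the log2 scale (fold change ± SE). The small intestinal enzymes Sis and Lct stayed under 0.3 CPM in every library. Other small intestinal genes, Alpi, Fabp6 and Slc5a1, were detected and were higher in the knockout. Alpi had 2.22, 3.68 and 33.9 CPM in the knockout, against 0.639, 1.36 and 1.97 CPM in wild type. Fabp6 had 0.739, 2.26 and 10.7 CPM in the knockout, against 0.433, 0.74 and 1.11 CPM in wild type. Hoxd13, a homeobox gene of the most distal gut, had 2.16, 11 and 62.2 CPM in the knockout, against 24.8, 84.6 and 157 CPM in wild type and was lower (log2 fold change -1.81 ± 0.64, adjusted p = 0.0319), with 6 of 9 knockout libraries under the lowest wild-type library. That call was lost without wild-type library 4 or 6 (adjusted p = 0.0619 and 0.0645) and without the 5 libraries with acinar RNA (adjusted p = 0.159). How far sampling position differed between the groups was not tested.

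**Figure D1:**
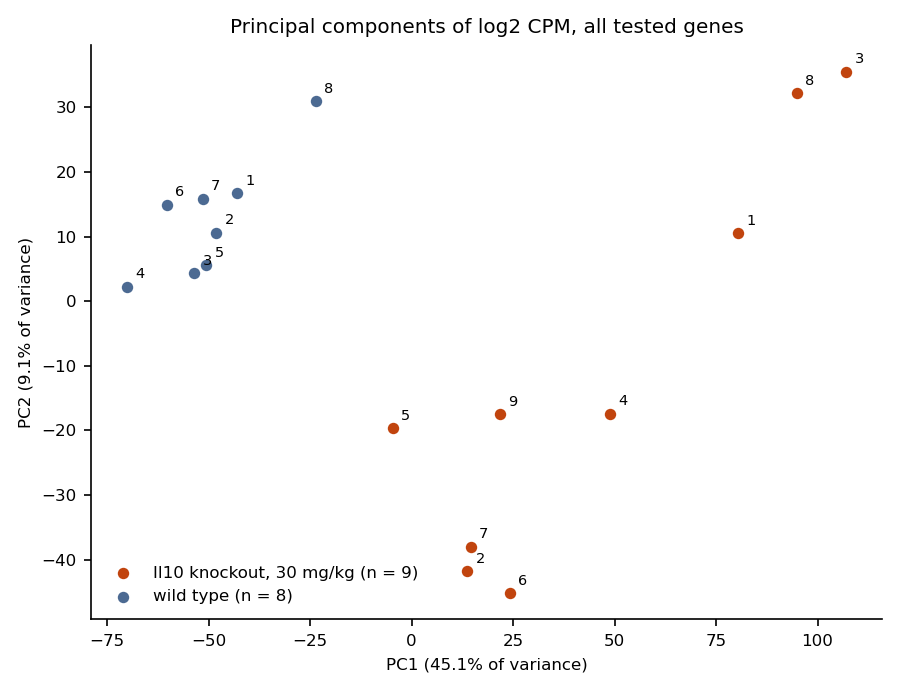
Principal components of log2 CPM over all tested genes, with PC1 on the x axis and PC2 on the y axis; each point is a library with its number. Knockout libraries run from -4.6 (library 5) to 107 (library 3) on PC1 and wild-type libraries from -70.1 to -23.6, with no overlap.

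In the comparison over all genes, 7169 of 16321 tested genes (43.9%) were called at an adjusted p under 0.05 in edgeR's quasi-likelihood test, 3685 (22.6%) higher and 3484 (21.3%) lower in the knockout. Of these, 854 (5.23%) were at least 2-fold higher and 747 (4.58%) at least 2-fold lower. In 915 genes (5.61%) all 9 knockout libraries lay above all 8 wild-type libraries, and in 533 (3.27%) all lay below. The first principal component held 45.1% of the variance and separated the groups. The balance of rises and falls depends on scaling. With the total count in place of TMM, 1858 genes were higher and 6771 lower, or 21.5% higher among calls against 51.4% with TMM, and the median over all genes moved to -0.24, against -0.01. On log2(TPM + 1), 1252 were higher and 7064 lower, with a median of -0.27. Small rises therefore have no firm direction. The counts of called list members below are to be set against the 22.6% higher and 21.3% lower over all genes.

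**Figure D2:**
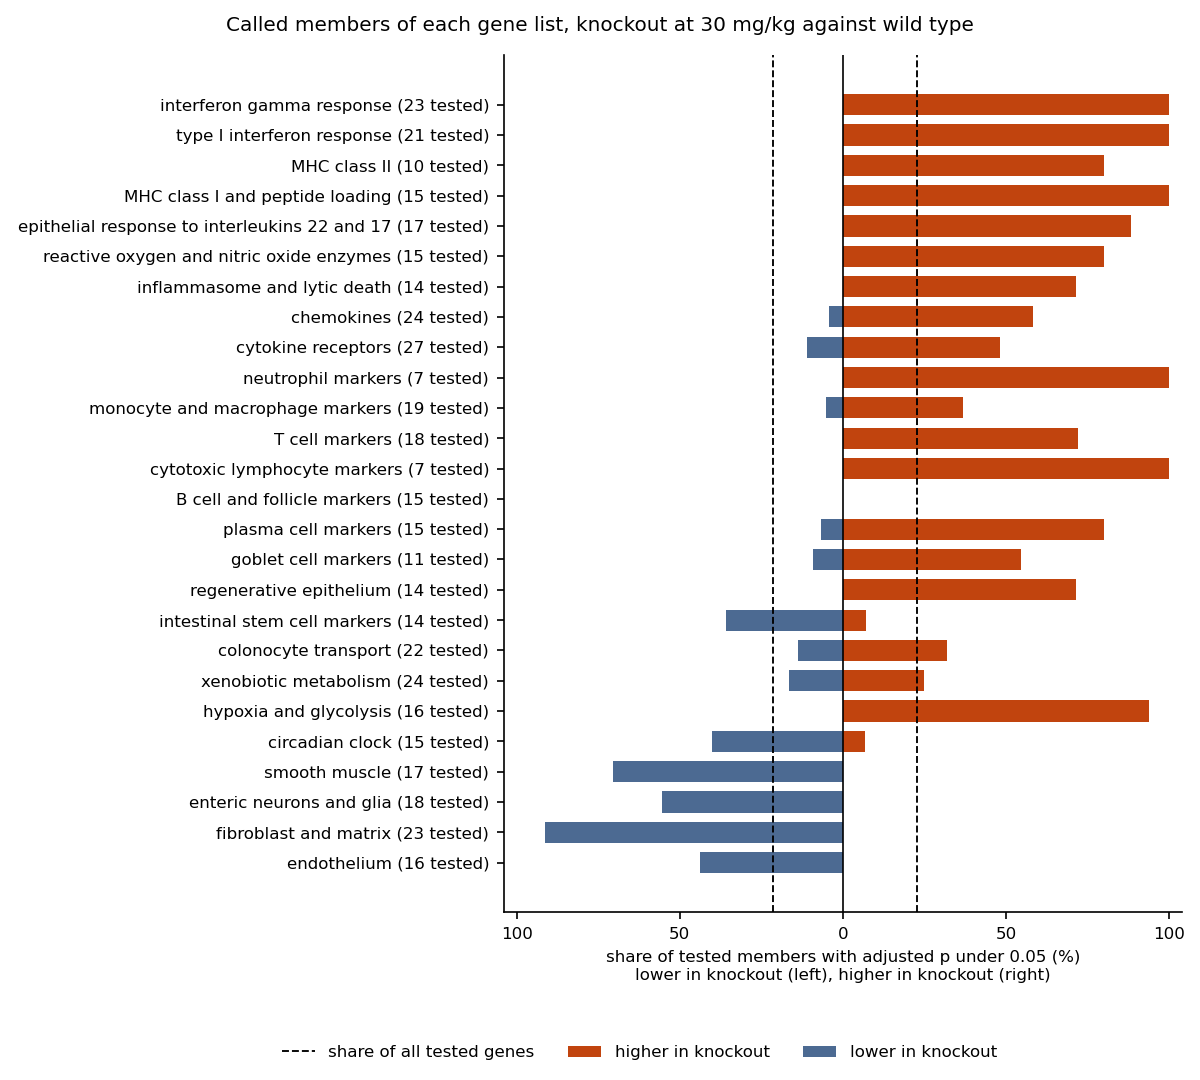
Share of the tested members of each gene list that were called lower (left bars) or higher (right bars) in the knockout at 30 mg/kg against wild type, in percent. Dashed lines mark the shares over all tested genes, 21.3% lower and 22.6% higher. The interferon, class I, neutrophil and cytotoxic lists reach 100% on the right. In several lists, among them neutrophil and cytotoxic, some members could pass the filter on low counts only through the knockout libraries. The bars of such lists are no support. The muscle, nerve, matrix and vessel lists have no bar on the right.

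The interferon gamma response stood out in every knockout library. All 23 tested genes of this list were higher, against 22.6% of all genes, and all 23 also lay above wild type without overlap, against 5.61% of all genes (8.87% in either direction). Their median log2 fold change was 2.95, against -0.01 over all genes. All 23 stayed called under each of the 28 alternatives tried. The list was chosen with earlier results of these data known, so these counts describe the libraries and are not independent support. Cxcl9 and Cxcl10, low in wild type, could pass the filter on low counts only through the knockout libraries. The list mean, as log2(CPM + 1), was 4.54 in the lowest knockout library and 3.02 in the highest wild-type library. Knockout library 5 was the lowest and library 1, at 6.48, the highest.

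To show what the leading genes have upstream of their start, the 250 bases before the start site are given for the 3 key genes of the list that hold a searched motif (RefSeq, GRCm38.p6, gene strand, 5′ to 3′). Capitals mark a pair of GAAA words with any 2 bases between them, a pattern bound by interferon regulatory factors, and TTCNNNGAA, the core of the gamma-activated sequence, each searched on both strands.
Igtp (chr11:58199306-58199555, plus strand): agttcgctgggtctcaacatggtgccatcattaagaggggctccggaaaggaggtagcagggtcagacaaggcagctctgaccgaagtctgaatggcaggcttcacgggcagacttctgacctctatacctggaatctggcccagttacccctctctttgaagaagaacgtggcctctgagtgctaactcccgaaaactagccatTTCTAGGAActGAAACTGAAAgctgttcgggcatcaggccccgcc
Cxcl10 (chr5:92348890-92349139, minus strand): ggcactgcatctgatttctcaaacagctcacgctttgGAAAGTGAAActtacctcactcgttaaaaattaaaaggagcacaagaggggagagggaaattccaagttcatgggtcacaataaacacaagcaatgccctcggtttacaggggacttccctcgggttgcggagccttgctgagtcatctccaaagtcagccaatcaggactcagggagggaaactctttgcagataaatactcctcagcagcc
Gbp2 (chr3:142620413-142620662, plus strand): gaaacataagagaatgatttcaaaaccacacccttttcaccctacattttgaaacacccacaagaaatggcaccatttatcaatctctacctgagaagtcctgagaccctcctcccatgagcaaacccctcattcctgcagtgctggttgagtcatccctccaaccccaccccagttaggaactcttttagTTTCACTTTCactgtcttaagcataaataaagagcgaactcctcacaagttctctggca
Igtp holds both patterns within 45 bases of its start, side by side and without overlap, Cxcl10 holds 1 match 204 to 213 bases before it, and Gbp2 holds 1 match 50 to 59 bases before it, on the other strand. The windows of Cxcl9 and Ubd hold neither. RefSeq windows were found for 15 of the 23 genes, and 11 of the 15 hold the GAAA pair and 7 hold TTCNNNGAA. Over all 32851 windows of this length in the table, 2.98% hold the GAAA pair and 7.02% hold TTCNNNGAA. A match is a description of these letters, not a binding site.

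Igtp, an immunity-related GTPase that acts on the vacuoles of intracellular pathogens, had 52.8, 216 and 263 CPM in the knockout, against 6.62, 8.38 and 13.9 CPM in wild type. That is a log2 fold change of 4.26 ± 0.32 (adjusted p = 3.43e-08). Gbp2, a guanylate-binding protein with the same kind of role, had 129, 249.5 and 304 CPM in the knockout, against 33.8, 45.2 and 67.5 CPM in wild type (2.30 ± 0.18, adjusted p = 4.95e-08). Cxcl9 and Cxcl10 encode chemokines that draw T cells through the receptor CXCR3. Cxcl9 had 4.36, 15.2 and 51.8 CPM in the knockout, against 0.118, 0.477 and 1.08 CPM in wild type (5.39 ± 0.53, adjusted p = 8.16e-07). Cxcl10 was less abundant, with 0.975, 2.82 and 5.8 CPM in the knockout, against 0.0367, 0.373 and 0.759 CPM in wild type (2.95 ± 0.43, adjusted p = 3.37e-05). Ubd, a ubiquitin-like modifier, had 15.2, 34.9 and 174 CPM in the knockout, against 5.66, 7.76 and 9.55 CPM in wild type (2.72 ± 0.43, adjusted p = 0.000105). In none of the 5 did the groups overlap, and the spread between knockout libraries was widest in Cxcl9 and Ubd.

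Ido1 and Tgtp1 were among the 8 largest called rises of protein-coding genes that did not overlap between the groups. The genes considered had a mean of at least 5 TPM in the knockout. Ido1, the enzyme that starts the breakdown of tryptophan to kynurenine, had 15.5, 80.5 and 177 CPM in the knockout, against 0.274, 0.559 and 1.5 CPM in wild type (6.99 ± 0.45, adjusted p = 6.81e-09). Tgtp1, a GTPase of T cells and interferon-treated cells, had 16.8, 120.1 and 177 CPM in the knockout, against 0.431, 1.58 and 2.07 CPM in wild type (6.09 ± 0.48, adjusted p = 6.53e-08). Tgtp1 and Tgtp2 are near-identical copies, so the split of reads between them is uncertain, but both were above wild type in every knockout library. Iigp1, a further immunity-related GTPase, rose by 5.86 ± 0.42. Irf1, a transcription factor of the pathway, had the smallest rise of the list, 1.32 ± 0.10.

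**Figure D3:**
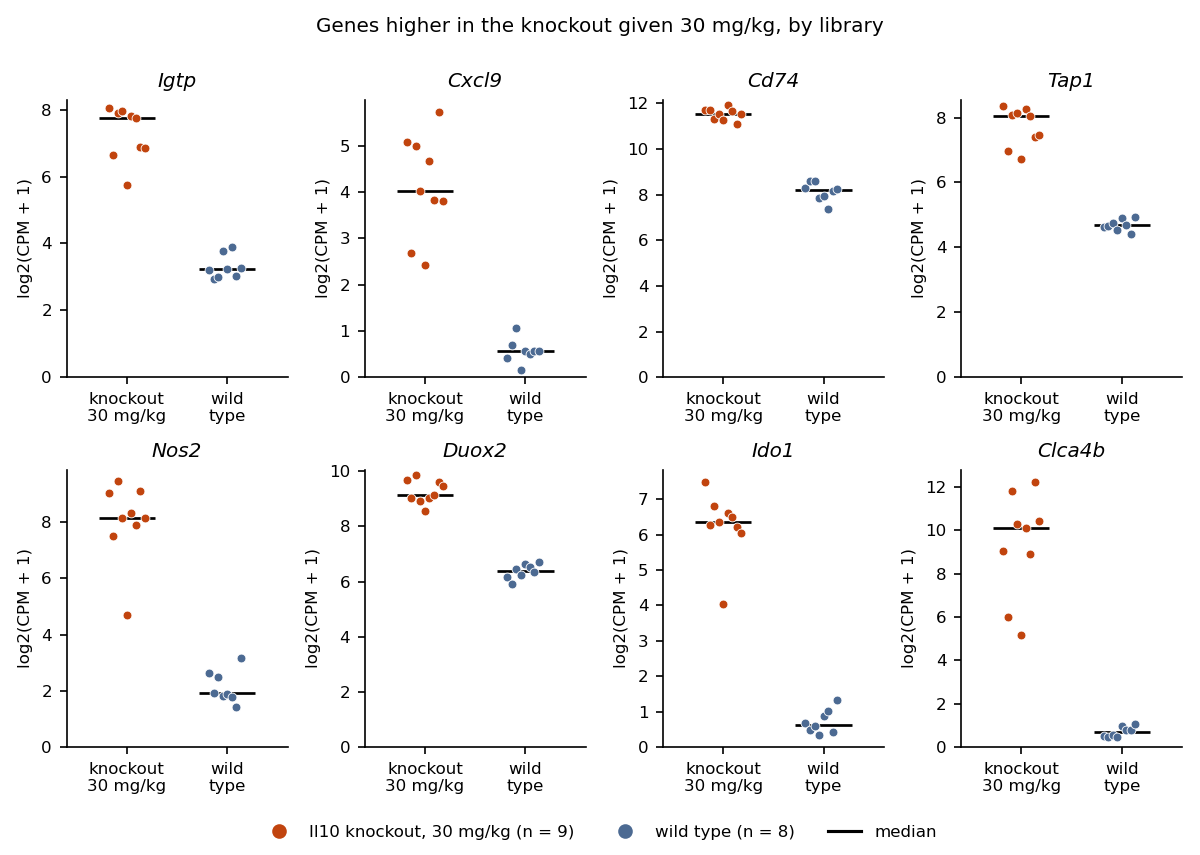
Level of 8 genes as log2(CPM + 1) on the y axis, in 9 libraries of the Il10 knockout at 30 mg/kg and 8 wild-type libraries; points are libraries and lines are medians. The groups do not overlap in any of the 8 panels, and the lowest knockout point of Nos2, Ido1 and Clca4b is library 5.

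Genes of antigen presentation rose on both the class II and the class I side. The class II list had 8 of 10 tested genes higher, all 8 without overlap, with a median log2 fold change of 2.99. Cd74, the invariant chain that guides class II molecules, had 2207, 3004 and 3914 CPM in the knockout, against 165, 293 and 391 CPM in wild type (3.38 ± 0.17, adjusted p = 1.32e-10). By median TPM, which is corrected for transcript length, Cd74 ranked 26 among all genes in the knockout, with 3713 TPM, and 304 in wild type, with 433 TPM. H2-Ab1, a class II chain, had 499, 691 and 965 CPM in the knockout, against 48.7, 72.8 and 101 CPM in wild type (3.32 ± 0.16, adjusted p = 1.32e-10). Ciita, the master regulator of class II genes, rose by 2.87 ± 0.38. The members not called were H2-Oa and H2-Ob, which form a class II modulator found in B cells, at 0.63 ± 0.32 and 0.33 ± 0.38. All 15 genes of class I presentation and peptide loading were higher, 14 without overlap, with a median of 1.59. B2m, the light chain of class I, had 751, 1145 and 1661 CPM in the knockout, against 207, 228 and 254 CPM in wild type (2.34 ± 0.13, adjusted p = 4.15e-10). Tap1, a peptide transporter, had 105, 261 and 326 CPM in the knockout, against 20.3, 24.7 and 29.7 CPM in wild type (3.16 ± 0.22, adjusted p = 8.86e-09), and Psmb9, a subunit of the immunoproteasome, had 60.1, 124 and 191 CPM in the knockout, against 14.1, 16.1 and 20.6 CPM in wild type (2.99 ± 0.21, adjusted p = 9.98e-09). Nlrc5, which switches on class I genes, showed the largest rise of this list, 4.32 ± 0.36.

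The list of genes usually read as a type I interferon response had 21 of 21 higher, 18 of them without overlap, with a median of 1.76. Many of its members also answer interferon gamma, so it is not independent of the list above. Isg15, a ubiquitin-like protein, had 17, 35.6 and 53.1 CPM in the knockout, against 2.84, 3.89 and 7.99 CPM in wild type (2.84 ± 0.29, adjusted p = 1.16e-06). Ifit1, which binds foreign RNA, had 12.2, 26.2 and 47.7 CPM in the knockout, against 2.36, 4.64 and 7.64 CPM in wild type (2.53 ± 0.32, adjusted p = 9.72e-06). Oas3, a sensor of double-stranded RNA, had the largest rise, 4.43 ± 0.30, and the knockout libraries lay above wild type in all 3 genes.

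The epithelial response to interleukins 22 and 17 had a list mean above every wild-type library in all 9 knockout libraries. Of 17 tested genes, 15 were higher and none lower, 10 without overlap, with a median of 2.85. Under total count scaling 13 were higher and 1 lower. Reg3g and Reg3b, low in most wild-type libraries, could pass the filter on low counts only through the knockout libraries. The count therefore does not support a rise of the list. Duox2, an oxidase that releases hydrogen peroxide at the epithelial surface, had 380.3, 558 and 926 CPM in the knockout, against 58.7, 83.4 and 103 CPM in wild type (2.94 ± 0.18, adjusted p = 1.16e-09). Its maturation factor Duoxa2 had 63.7, 103 and 191 CPM in the knockout, against 3.47, 6.92 and 9.19 CPM in wild type (4.09 ± 0.27), again without overlap. Nos2, the inducible nitric oxide synthase, had 25.1, 278 and 697 CPM in the knockout, against 1.67, 2.78 and 7.91 CPM in wild type (6.51 ± 0.57, adjusted p = 2.05e-07). Library 5 was the lowest knockout library of Nos2 and still above all wild-type libraries, and the next lowest had 181 CPM. Reg3g, an antibacterial lectin, spanned 0.829, 14.6 and 57 CPM in the knockout, against 0, 0.316 and 0.811 CPM in wild type (6.06 ± 0.90, adjusted p = 5.64e-05), so its lowest knockout library barely cleared the highest wild-type library, and limma voom did not call it. Its neighbour Reg3b had 4.86, 61.2 and 126 CPM in the knockout, against 0, 0.0768 and 6.83 CPM in wild type (5.86 ± 1.08, adjusted p = 0.00053). The groups overlapped in Reg3b through wild-type library 5, at 6.83 CPM, and leaving it out gave 8.90 on the log2 scale. That library holds acinar RNA, and the fit without it kept knockout libraries 1, 3, 4 and 9, which hold acinar RNA too. How acinar RNA bears on Reg3b was not tested. Lcn2, which withholds iron from bacteria, had 0.654, 2.93 and 14.6 CPM in the knockout, against 0.392, 0.829 and 1.05 CPM in wild type (2.37 ± 0.46, adjusted p = 0.00048), with a log2 fold change of 1.77 without knockout library 8. Reg3b and Reg3g are close paralogs, and how the counting split their reads is not given in the sources used here.

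Enzymes of reactive oxygen and genes of lytic cell death were also higher. The enzyme list shares Nos2, Duoxa2 and Duox2 with the list above, so it is not independent of that list. Of 15 enzymes of reactive oxygen and nitric oxide, 12 were higher and none lower (median 0.97; 11 higher and 1 lower under total count scaling). Nox1, the colonic NADPH oxidase, had 12.1, 34.5 and 54.4 CPM in the knockout, against 6.27, 9.63 and 21.1 CPM in wild type (1.66 ± 0.28, adjusted p = 0.000215). Of 14 inflammasome and lytic death genes 10 were higher and none lower (median 0.79; 7 and 1 of 13 on log2(TPM + 1)). Casp4, the caspase that senses bacterial lipopolysaccharide inside cells, had 71.7, 82.8 and 117 CPM in the knockout, against 16.1, 19.7 and 24.7 CPM in wild type (2.12 ± 0.11, adjusted p = 1.73e-10). Casp1 and its substrate Gsdmd rose by 0.85 ± 0.11 and 0.73 ± 0.08, with no overlap in any of these 3 genes. Gsdmc2, an epithelial gasdermin, had 73.2, 175 and 495 CPM in the knockout, against 200.2, 242 and 294 CPM in wild type and was not called. Of the 10 tested genes of tryptophan use, 3 were higher and none lower, or 3 and 1 under total count scaling, near the 22.6% of all genes that were higher. These were Ido1, Wars (1.71 ± 0.19), the tryptophanyl-tRNA synthetase that interferon gamma induces, and Tiparp. Complement genes numbered 5 higher of 11 and none lower (4 and 1 under total count scaling, 2 and 1 of 9 on log2(TPM + 1)), with Cfb at 0.57 ± 0.11 (adjusted p = 0.000481, not called on the TPM scales) and C3 at 49.9, 235 and 275 CPM in the knockout, against 69.3, 189.9 and 269 CPM in wild type and not called.

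The cytokines that induce these programs were mostly too low to test. Of 26 ligands 10 passed the filter on low counts, and 4 were higher and none lower (Tnf, Il1b, Il1a and Lif). Il1a, at 0.12 to 0.46 TPM in wild type, may have passed through the knockout libraries, so this count is no support. Without knockout library 8 Il1a had a log2 fold change of 1.76. Under total count scaling 3 others were lower. Tnf had 3.05, 9.55 and 15.4 CPM in the knockout, against 0.392, 0.953 and 1.62 CPM in wild type (3.32 ± 0.34, adjusted p = 6.67e-07) without overlap. Il1b had 3.14, 5.78 and 45.1 CPM in the knockout, against 0.827, 1.97 and 2.6 CPM in wild type (2.46 ± 0.54, adjusted p = 0.00163), also without overlap, with a log2 fold change of 1.62 without knockout library 8, its highest. Ifng, Il22 and Il17a were not tested. Ifng reached at most 2.09 CPM in the knockout, with 1 library at 0, and at most 0.0394 CPM in wild type. Il22 reached at most 2.09 CPM in the knockout, with 2 libraries at 0, and was at 0 in all wild-type libraries. Il17a reached at most 2.5 CPM in the knockout, with 2 libraries at 0, and at most 0.0406 CPM in wild type. Knockout library 8 was the highest for all 3.

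Of 27 tested receptors 13 were higher and 3 lower (median 0.55; 12 and 6 under total count scaling, 8 and 6 of 25 on log2(TPM + 1)). Il12rb1, the receptor chain for the p40 subunit of interleukins 12 and 23, had 0.576, 1.42 and 2.49 CPM in the knockout, against 0.145, 0.269 and 0.545 CPM in wild type (2.25 ± 0.34, adjusted p = 4.76e-05), and the groups did not overlap. Osmr, the oncostatin M receptor, had 8.68, 18 and 28.5 CPM in the knockout, against 6.53, 10.1 and 14 CPM in wild type (0.81 ± 0.20, adjusted p = 0.003), with overlap. The receptor genes Il22ra1 and Il10ra were not called, at -0.17 ± 0.14 and 0.53 ± 0.22; Il10ra passed without knockout library 2 or 4 or wild-type library 2 (adjusted p = 0.0222 to 0.0403). Lifr, the receptor for leukaemia inhibitory factor, was the largest fall, with 4.93, 8.54 and 24 CPM in the knockout, against 29.9, 33.2 and 47.2 CPM in wild type (-1.89 ± 0.25, adjusted p = 1.51e-05), and all 9 knockout libraries lay below wild type. Il6st, the signalling chain that Lifr shares with the interleukin 6 receptor, and Il1r1 were the other 2 falls.

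Chemokine genes were higher in 14 of 24 and lower in 1 (median 0.58). Under total count scaling or on log2(TPM + 1), 12 were higher and 4 lower. Cxcl9, Cxcl10 and Cxcl11 are in the interferon gamma list too. They were low in wild type, Cxcl11 at 0 to 0.36 TPM, and may have passed the filter through the knockout libraries. This count is therefore no support. Beyond Cxcl9, Cxcl10 and Cxcl11, Ccl8, a ligand for monocytes and other cells, had 2.7, 11.2 and 20.4 CPM in the knockout, against 0.434, 0.913 and 1.06 CPM in wild type (3.81 ± 0.31, adjusted p = 4.96e-08). Ccl5, a product of T and natural killer cells, had 3.49, 8.23 and 65.1 CPM in the knockout, against 0.188, 1.07 and 2.91 CPM in wild type (3.62 ± 0.65, adjusted p = 0.00031); without knockout library 1, its highest, the value was 2.93. Ccl20, an epithelial chemokine, had 13.5, 20.6 and 35.1 CPM in the knockout, against 10.6, 16.8 and 24.9 CPM in wild type and was not called. Cxcl12 was the fall; it was lost under 11 of the 17 omissions of a library and in both reduced sets. Cxcl5, which draws neutrophils, was not tested and had 60.5 CPM in knockout library 8, against at most 2.88 in the other 8 and 0.301 in wild type.

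**Figure D4:**
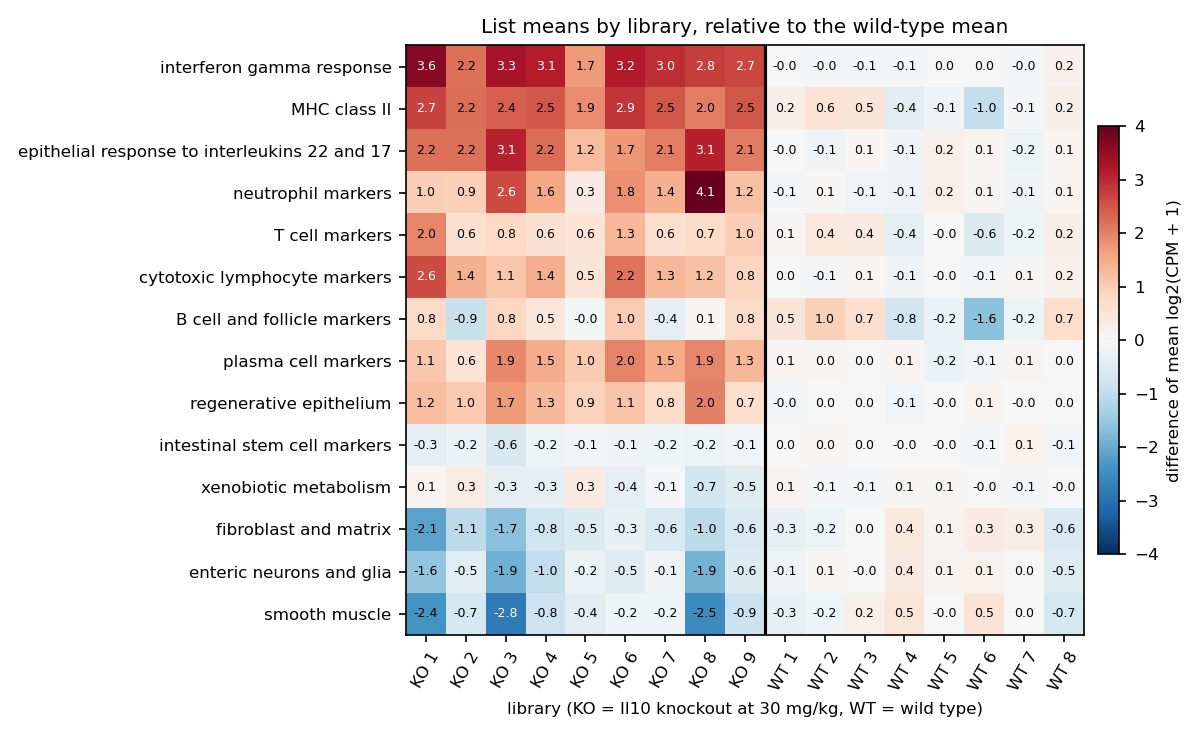
Mean log2(CPM + 1) of 14 gene lists in each library, as the difference from the wild-type mean of the list (colour and printed value); knockout libraries 1 to 9 are left of the black line and wild-type libraries 1 to 8 right of it. The interferon gamma, class II and epithelial rows are raised in all 9 knockout libraries, the neutrophil row is highest in library 8, the cytotoxic row in library 1, and the smooth muscle row is lowest in libraries 1, 3 and 8.

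Leukocyte markers rose unevenly by cell type and library. Of 16 neutrophil markers 7 passed the filter on low counts, and these were higher. Members near 0 in wild type, such as S100a8 and S100a9, could pass that filter only through the knockout libraries where they are high, so the count does not support a rise of the list. Without knockout library 8 the count was 4, without libraries 1, 3 and 8 it was 3, and limma voom also called 3. S100a8 and S100a9 encode the subunits of calprotectin. S100a8 had 0, 5.01 and 156 CPM in the knockout, against 0, 0.0984 and 0.367 CPM in wild type (7.58 ± 1.56, adjusted p = 0.00117). S100a9 had 0.0873, 2.75 and 137 CPM in the knockout, against 0, 0.0562 and 0.355 CPM in wild type (7.73 ± 1.60, adjusted p = 0.00116). Knockout library 8 was the highest in both, the groups overlapped, and voom called neither. Without that library S100a8 had a value of 6.19, and without wild-type library 2 S100a9 had 8.57. Ly6g, a neutrophil surface protein, had 241, 375 and 647 CPM in the knockout, against 93.6, 102 and 148 CPM in wild type (1.86 ± 0.18, adjusted p = 5.77e-07) without overlap. Ly6g was thus present in every wild-type library, while S100a8 did not pass 0.367 CPM in any of them.

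Monocyte and macrophage markers were higher in 7 of 19 and lower in 1 (median 0.43; 6 and 2 under total count scaling), and higher in 11 without knockout library 1. Ly6c2, a marker of blood monocytes, had 7.93, 17.5 and 23.9 CPM in the knockout, against 1.9, 2.92 and 4.36 CPM in wild type (2.46 ± 0.25, adjusted p = 7.93e-07), without overlap. Cd14, the co-receptor for lipopolysaccharide, had 58.2, 138 and 223 CPM in the knockout, against 29.1, 37 and 38.1 CPM in wild type (1.92 ± 0.21, adjusted p = 2.08e-06). Several macrophage genes were not called with all libraries. C1qa, a chain of the first complement component, had 19.2, 28.9 and 44.2 CPM in the knockout, against 16.6, 22.4 and 30.5 CPM in wild type. Mrc1, the mannose receptor, had 5.69, 12.6 and 18.9 CPM in the knockout, against 10.8, 14.3 and 19.9 CPM in wild type. Cd68, a lysosomal protein of macrophages, had 4.44, 7.49 and 13.3 CPM in the knockout, against 4.66, 5.57 and 7.39 CPM in wild type. C1qa passed without knockout library 1 or 4 (adjusted p = 0.0289 and 0.0388) and Cd68 without any of knockout libraries 1, 5 and 7 and wild-type library 7 (adjusted p = 0.0186 to 0.0452). Cd163, a scavenger receptor, was the fall (-0.98 ± 0.32), lost without wild-type library 4, without the libraries with acinar RNA and without knockout libraries 1, 3 and 8.

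T cell markers were higher in 13 of 18 and lower in none (median 1.49). Cd3e, a chain of the T cell receptor complex, had 2.09, 3.68 and 12.6 CPM in the knockout, against 0.392, 1.47 and 1.77 CPM in wild type (1.80 ± 0.36, adjusted p = 0.000656). Cd8a had 2.14, 4.88 and 44.9 CPM in the knockout, against 0.263, 0.617 and 1.65 CPM in wild type (3.58 ± 0.66, adjusted p = 0.000417), and a log2 fold change of 2.63 without knockout library 1, which stood at 44.9 CPM with the others at 10.2 or less. Neither gene overlapped between groups. Cd4 had 1.51, 6.63 and 11.5 CPM in the knockout, against 2.41, 4.14 and 6.22 CPM in wild type and was not called (adjusted p = 0.0646), though it passed without knockout library 2 or 4 (adjusted p = 0.00882 and 0.043). Of 12 cytotoxic genes 7 passed the filter, in part only through the knockout libraries, and were higher, so this count is likewise no support. Gzmb and Gzma, proteases that killer cells inject into their targets, were among the 8 rises chosen as Ido1 was. Gzmb had 0.262, 4.51 and 19.5 CPM in the knockout, against 0, 0.0729 and 0.203 CPM in wild type (6.47 ± 0.80, adjusted p = 7.96e-06) and Gzma had 0.785, 7.35 and 32 CPM in the knockout, against 0, 0.108 and 0.225 CPM in wild type (6.66 ± 0.81, adjusted p = 7.84e-06), both without overlap, highest in libraries 1 and 6 and lowest in library 5. Prf1, perforin, was not tested and reached 1.43 CPM in the knockout, against 0.325 CPM at most in wild type. Genes of regulatory T cells and checkpoints were higher in 8 of 10 tested and lower in none (median 1.13). The higher count was 5 without knockout library 8 or wild-type library 4, or under total count scaling, and 3 of 6 on log2(TPM + 1). Ctla4, near 0 in wild type, could pass the filter only through the knockout libraries, so this count is likewise no support. Ctla4 had 0.488, 1.54 and 6.03 CPM in the knockout, against 0.0734, 0.183 and 0.646 CPM in wild type (3.04 ± 0.54, adjusted p = 0.000234). Foxp3 had 0.166, 0.886 and 1.75 CPM in the knockout, against 0.0392, 0.274 and 0.709 CPM in wild type (1.45 ± 0.56, adjusted p = 0.0436), and lost its call without any of knockout libraries 2, 5, 6, 7 and 8 and wild-type libraries 1, 4, 5, 6, 7 and 8 (adjusted p = 0.053 to 0.0797).

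B cell and follicle markers were the immune list without a call, with 0 of 15 in edgeR, DESeq2, limma voom and every other alternative (median 0.27; in edgeR 0 had an unadjusted p under 0.05). Cr2, a complement receptor of B cells and follicular dendritic cells, had 6.34, 25.7 and 41.7 CPM in the knockout, against 4.43, 26.4 and 48.4 CPM in wild type, with overlap between the groups. Plasma cell genes did differ, with 12 of 15 higher and 1 lower (median 2.0). Jchain, which joins antibody chains for secretion, had 322, 883 and 1542 CPM in the knockout, against 141, 192 and 252 CPM in wild type (2.24 ± 0.26, adjusted p = 3.38e-06) without overlap. Igha, the heavy chain of immunoglobulin A, had 655, 1793 and 3466 CPM in the knockout, against 269.9, 366 and 681 CPM in wild type (2.13 ± 0.32, adjusted p = 5.47e-05) and by median TPM ranked 45 in the knockout and 223 in wild type. Ighg2b, a heavy chain of immunoglobulin G, had 3.58, 21.5 and 57.4 CPM in the knockout, against 1.49, 2.21 and 5.24 CPM in wild type (3.39 ± 0.47, adjusted p = 2.90e-05). Ighg1 was the fall (-0.995 ± 0.33), lost without wild-type library 7 and without the libraries with acinar RNA. Of 86 tested immunoglobulin variable segments, 62 were higher and none lower, against 22.6% higher and 21.3% lower over all genes. Any segment near 0 in wild type could pass the filter only through the knockout libraries, so this count is no support. Constant and variable segments share sequence, so single segments are uncertain. In the mast cell and eosinophil list 3 of 6 tested genes were higher (Mcpt2, Mcpt1 and Hdc), and under total count scaling 1 was lower. Only 6 of its 16 genes passed the filter. Mcpt2, at 0 to 1.58 TPM in wild type, may have passed through the knockout libraries, so this count is no support either. Without knockout library 8 Mcpt2 had a log2 fold change of 2.34. Mcpt1, a protease of mucosal mast cells, had 0.432, 2.49 and 27.3 CPM in the knockout, against 0.301, 0.533 and 1.14 CPM in wild type (3.32 ± 0.70, adjusted p = 0.00112), with a log2 fold change of 2.49 without knockout library 8; Cpa3 was not tested.

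Clca4b and Plet1 led the rises chosen in that way. Clca4b, of the family of calcium-activated chloride channel regulators, had 35.5, 1109.8 and 4734 CPM in the knockout, against 0.392, 0.608 and 1.1 CPM in wild type, a log2 fold change of 11.11 ± 1.11 (adjusted p = 1.33e-06). By median TPM it ranked 280 in the knockout and 16796 in wild type. Plet1, a surface protein of some epithelia, had 32.6, 984 and 2420.4 CPM in the knockout, against 1.8, 2.33 and 3.4 CPM in wild type (8.63 ± 0.82, adjusted p = 6.23e-07). Knockout libraries 3 and 8 were the highest 2 in both genes and library 5 the lowest. The regenerative epithelium list, genes that injured gut epithelium expresses, had 10 of 14 higher and none lower (median 0.81). Ly6a, known as Sca-1, had 379.99, 869 and 1221 CPM in the knockout, against 34.4, 47.4 and 84.4 CPM in wild type (4.12 ± 0.24, adjusted p = 1.13e-09), and Sprr1a, a precursor of the cornified envelope, had 16.6, 47.3 and 172 CPM in the knockout, against 0.549, 1.47 and 3.11 CPM in wild type (5.36 ± 0.54, adjusted p = 9.04e-07), neither with overlap. Anxa1, an annexin, had 127, 162 and 396 CPM in the knockout, against 92.1, 107 and 152 CPM in wild type (0.82 ± 0.19, adjusted p = 0.00278). Stem cell markers had 1 of 14 higher (Prom1, 1.62 ± 0.30) and 5 lower (median -0.25), with 9 lower under total count scaling. Lgr5, the receptor that marks crypt base stem cells, had 0.44, 0.886 and 3.02 CPM in the knockout, against 1.88, 2.81 and 3.36 CPM in wild type (-1.11 ± 0.33, adjusted p = 0.0113). Smoc2 had 4.88, 15 and 22.6 CPM in the knockout, against 15.1, 19.5 and 24.8 CPM in wild type and was not called, but passed without knockout library 9 (adjusted p = 0.0436). The list mean was lower in all 9 knockout libraries than in any wild-type library, but by a narrow margin. The highest knockout mean was 4.107 and the lowest wild-type mean 4.115 on log2(CPM + 1). The summed level of the list went the other way at the median, with 430, 587 and 710 CPM in the knockout, against 392, 423 and 465 CPM in wild type.

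Goblet cell genes were higher in 6 of 11 and lower in 1, Klk1 (median 0.67). Muc2, the main mucin of colonic mucus, had 3516, 5706 and 7354 CPM in the knockout, against 2538, 3266 and 3894 CPM in wild type (0.77 ± 0.13, adjusted p = 0.000152), and Zg16, a lectin of the mucus, had 3012, 5647 and 6558 CPM in the knockout, against 3061, 3358 and 3852 CPM in wild type (0.67 ± 0.12, adjusted p = 0.000234). Retnlb, a goblet cell protein made during infection and inflammation, had 11, 71 and 483 CPM in the knockout, against 1.72, 2.6 and 6.33 CPM in wild type (4.96 ± 0.71, adjusted p = 5.17e-05) without overlap, and a log2 fold change of 4.13 without knockout library 7. Ang4, an antimicrobial ribonuclease, had 0.157, 6.46 and 309 CPM in the knockout, against 0.611, 4.74 and 12.9 CPM in wild type (3.37 ± 1.25, adjusted p = 0.0391); its call was lost without any of knockout libraries 7 and 9 and wild-type libraries 1, 2, 3, 4, 5, 6 and 7 (adjusted p = 0.0501 to 0.137), and without knockout library 7 the log2 fold change was 1.93. Zg16 was also the only nuclear gene other than Rps27 and 3 predicted genes among the 10 most abundant genes of wild type by TPM. The others were mt-Co1, mt-Atp8, mt-Co3, mt-Nd3 and mt-Atp6, and the predicted genes Gm28661, Gm10925 and Gm28437, which may share reads with mitochondrial genes, are uncertain. Of 13 mitochondrially encoded genes 5 were higher and none lower (median 0.27), but 0 under total count scaling, 3 without knockout libraries 1, 3 and 8, and 0 higher and 1 lower on log2(TPM + 1). mt-Nd3 was called (0.37 ± 0.14) but lost its call under 10 of the omissions, and was under 0 on the TPM scales, as were mt-Co1, mt-Co3 and Rps27. mt-Nd1 had 3549, 4164 and 4639 CPM in the knockout, against 2743, 2999 and 3950.5 CPM in wild type (0.35 ± 0.09).

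Colonocyte transport genes were mixed, with 7 of 22 higher and 3 lower (median 0.06), against 22.6% and 21.3% of all genes. Under total count scaling 7 were higher and 6 lower (median -0.17), and on log2(TPM + 1) 4 and 8. Without the libraries with acinar RNA 1 was lower. Aqp8, a water channel of surface cells, had 639, 1035 and 3079 CPM in the knockout, against 487, 692 and 934 CPM in wild type (1.01 ± 0.27, adjusted p = 0.00705; not called on the TPM scales). Car1, a carbonic anhydrase, had 43.8, 166 and 388 CPM in the knockout, against 284, 404 and 637 CPM in wild type (-0.99 ± 0.34, adjusted p = 0.0256), and was lost without wild-type library 6 (adjusted p = 0.0551). The chloride exchanger gene Slc26a3 had 756, 1285 and 2052 CPM in the knockout, against 917, 1306 and 1519 CPM in wild type and was not called, and its value of 0.07 ± 0.18 with TMM was under 0 under total count scaling and on the TPM scales. The sodium channel gene Scnn1b had 10.2, 19 and 37.6 CPM in the knockout, against 16.3, 25.1 and 26.5 CPM in wild type and was not called with all libraries; it passed without knockout library 5 (adjusted p = 0.0274). Slc9a3, the sodium-proton exchanger of the apical membrane, showed the largest rise of the list, with 62.8, 192 and 438 CPM in the knockout, against 23.2, 34.9 and 80.5 CPM in wild type (2.28 ± 0.41, adjusted p = 0.000346). Without knockout library 2 or 5 there were 5 falls in place of 3. Tight junction genes were higher in 8 of 16 and lower in 1, or 2 without any of knockout libraries 1, 2, 3 and 5 and wild-type libraries 2 and 3 (median 0.26; 5 and 4 under total count scaling; 3 and 4 with a median of -0.08 on log2(TPM + 1)). Cldn4 rose by 1.35 ± 0.30 and Cldn8, a sealing claudin, by 0.52 ± 0.14, the second not called under total count scaling or TPM. Cldn2, a pore-forming claudin, had 30.3, 59.6 and 73.5 CPM in the knockout, against 66, 75.1 and 87.8 CPM in wild type (-0.41 ± 0.14, adjusted p = 0.0199), and Ocln had 97.5, 134 and 199 CPM in the knockout, against 141, 158 and 181 CPM in wild type and was not called.

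The 8 largest falls were chosen like the rises, but with a mean of at least 5 TPM in wild type. These were Fxyd4, Klk15, Cyp2c55, Slc35e3, Mettl7a2, Fndc5, Abcg5 and Hist2h4. They were smaller than the rises, from -3.41 ± 0.46 to -2.10 ± 0.22 on the log2 scale. Fxyd4, a subunit that tunes the sodium-potassium pump, had 0.123, 1.02 and 4.32 CPM in the knockout, against 9.33, 13.1 and 24.8 CPM in wild type (adjusted p = 2.24e-05). Klk15, a kallikrein-related peptidase, had 1.33, 2.84 and 14.3 CPM in the knockout, against 17.7, 21.7 and 28 CPM in wild type (-2.54 ± 0.37, adjusted p = 5.09e-05), with knockout library 5 at 14.3 CPM and the other 8 at 3.99 or less. Slc35e3, a member of the nucleotide sugar transporter family, had 2.31, 6.06 and 15.4 CPM in the knockout, against 27, 32.5 and 36.2 CPM in wild type (-2.29 ± 0.25, adjusted p = 2.21e-06). Library 5 was the knockout library nearest to wild type in these 3 genes. Cyp2c55, a cytochrome P450 of the colon, had 8.17, 48.8 and 324 CPM in the knockout, against 385, 469 and 576 CPM in wild type (-2.30 ± 0.61, adjusted p = 0.00666); without the 5 libraries with acinar RNA the value was -1.85 (adjusted p = 0.0713). Abcg5, part of a transporter that returns sterols to the lumen, had 2.05, 13.3 and 24.1 CPM in the knockout, against 26.7, 56.1 and 85.4 CPM in wild type (-2.11 ± 0.39, adjusted p = 0.0004). Mettl7a2, a methyltransferase-like protein, fell by 2.16 ± 0.43, and Fndc5, the precursor of irisin, fell by 2.11 ± 0.30. Hist2h4 had 0.979, 1.78 and 3.49 CPM in the knockout, against 5.49, 7.44 and 11.9 CPM in wild type and belongs to a family of near-identical histone H4 genes, so its counts are uncertain.

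**Figure D5:**
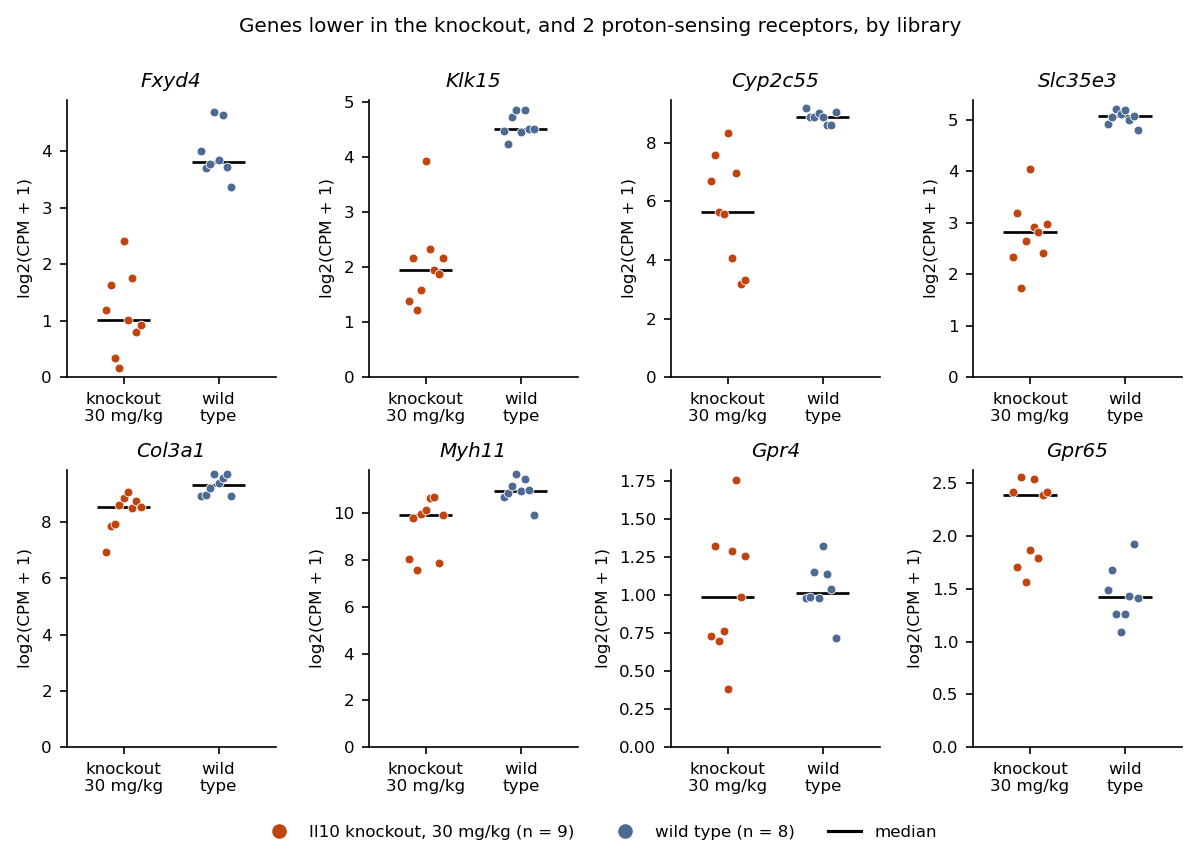
Level of 8 genes as log2(CPM + 1) on the y axis, in 9 libraries of the Il10 knockout at 30 mg/kg and 8 wild-type libraries; points are libraries and lines are medians. Fxyd4, Klk15, Cyp2c55 and Slc35e3 do not overlap; in Myh11 knockout libraries 1, 3 and 8 lie far below the rest, and the 2 groups overlap in Col3a1, Myh11, Gpr4 and Gpr65.

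Among genes of xenobiotic metabolism 6 of 24 were higher and 4 lower (median -0.23; 5 and 9 under total count scaling, 3 and 11 of 22 on log2(TPM + 1)), shares near the 22.6% and 21.3% over all genes, and 1 was lower without the libraries with acinar RNA. Beside Cyp2c55, the drug efflux pump gene Abcb1a fell, with 152, 321 and 494 CPM in the knockout, against 467, 533 and 738 CPM in wild type (-0.86 ± 0.20, adjusted p = 0.00217). Ces2a, a carboxylesterase, rose by 0.67 ± 0.21 (adjusted p = 0.0178), a call not kept under total count scaling or TPM. Nr1i2, the nuclear receptor PXR that controls these genes, had 66.4, 80.3 and 112 CPM in the knockout, against 77.8, 86.9 and 98.7 CPM in wild type and was not called. Fatty acid oxidation and ketone genes were 10 of 19 higher and 1 lower (median 0.23), but 4 and 3 under total count scaling, 3 and 5 on log2(TPM + 1), 5 higher in both reduced sets, and 5 or 6 higher without any of knockout libraries 1, 2 and 3 and wild-type libraries 3, 4 and 7. Cpt1a, which carries fatty acids into mitochondria, had 171, 214 and 282 CPM in the knockout, against 173, 193 and 233 CPM in wild type and was not called. Hypoxia and glycolysis genes were 15 of 16 higher (median 0.59), 10 under total count scaling and 6 on log2(TPM + 1). Hk2, a hexokinase, had 289, 459.6 and 1057 CPM in the knockout, against 131, 185 and 298 CPM in wild type (1.48 ± 0.28, adjusted p = 0.000441). The glucose transporter gene Slc2a1 (0.35 ± 0.12) and Vegfa (0.39 ± 0.14) were not called under total count scaling, on the TPM scales or without knockout libraries 1, 3 and 8, and Vegfa was lost without knockout library 2 or wild-type library 3 or 5 (adjusted p = 0.0514 to 0.0547). Vegfa had a value under 0 on the TPM scales.

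Endoplasmic reticulum stress genes were 9 of 16 higher and 1 lower (median 0.35), 6 and 1 under total count scaling and 1 and 2 on log2(TPM + 1); the fall was lost in both reduced sets. Hspa5, the main chaperone of that compartment, had 435, 861 and 1644 CPM in the knockout, against 423, 539 and 743 CPM in wild type (0.71 ± 0.20, adjusted p = 0.00786), not called without the libraries with acinar RNA or on the TPM scales. Dnajb9, its co-chaperone, rose by 0.28 ± 0.08 with TMM and was not called under total count scaling or TPM. Proliferation genes were 12 of 25 higher and none lower (median 0.49), but 2 under total count scaling, 1 on log2(TPM + 1), 3 without the libraries with acinar RNA, 5 without knockout libraries 1, 3 and 8, and 6 or 7 without any of knockout libraries 4 and 8 and wild-type libraries 1, 3 and 4. Mki67 had 54.9, 141 and 198 CPM in the knockout, against 54.9, 96.6 and 152 CPM in wild type and was not called, nor was Ccnb1 at 0.64 ± 0.29, which passed without knockout library 2 or 5 or wild-type library 8 (adjusted p = 0.0344 to 0.0485). Clock genes were 1 of 15 higher (Per1, lost under 8 of the omissions and in both reduced sets) and 6 lower (median -0.22; 0 and 10 under total count scaling, 0 and 11 on log2(TPM + 1)). Per2, a repressor of the clock, had 6.28, 14.1 and 42.2 CPM in the knockout, against 27.9, 40 and 60 CPM in wild type (-1.18 ± 0.32, adjusted p = 0.00718). Arntl, an activator of the clock, had 55.9, 71.8 and 91.4 CPM in the knockout, against 63.2, 76.2 and 88.4 CPM in wild type and was not called. Dbp, a clock output gene, had 0.932, 1.79 and 8.07 CPM in the knockout, against 2.61, 4.79 and 6.88 CPM in wild type and was not called with all libraries; it passed without knockout library 2 (adjusted p = 0.0488). The hour of sampling is not in the labels. Immediate early genes were 7 of 10 higher and 2 lower (median 0.60), with 4 higher under total count scaling or without knockout libraries 1, 3 and 8 and 3 on log2(TPM + 1), the falls being the heat shock genes Hspa1a and Hspa1b (-1.996 ± 0.34 and -1.58 ± 0.34). Fos had 135, 174 and 285 CPM in the knockout, against 67.4, 79.2 and 103 CPM in wild type (1.33 ± 0.17, adjusted p = 8.73e-06) and Egr1 had 17.8, 25.4 and 75.3 CPM in the knockout, against 11.1, 14.9 and 18.4 CPM in wild type (1.33 ± 0.29, adjusted p = 0.0014).

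Genes of the deeper colon wall were lower, and the libraries of the knockout differed widely in them. Of 17 smooth muscle genes 12 were lower and none higher, against 21.3% of all genes lower, with a median log2 fold change of -0.99; all 17 were lower under total count scaling and on log2(TPM + 1). The count was 7 without knockout library 1 or 4 or wild-type library 3, 4 or 6, 10 without knockout libraries 1, 3 and 8, and 0 without the 5 libraries with acinar RNA. Myh11, the smooth muscle myosin heavy chain, had 189.8, 974 and 1657 CPM in the knockout, against 965, 1971 and 3196 CPM in wild type (-1.25 ± 0.40, adjusted p = 0.0178). Acta2, smooth muscle actin, had 127, 674 and 1057 CPM in the knockout, against 759, 1210.02 and 1919.6 CPM in wild type (-1.03 ± 0.39, adjusted p = 0.0406), and was lost without any of knockout libraries 1, 3, 4 and 8 and wild-type libraries 3, 4, 5, 6 and 7 (adjusted p = 0.0502 to 0.0809). Des, desmin, had 162, 852 and 1283 CPM in the knockout, against 847, 1249 and 1860.4 CPM in wild type and was not called, but passed without knockout library 6 or 7 (adjusted p = 0.0435 and 0.0377). The summed level of the list was 2016 to 2640 CPM in knockout libraries 1, 3 and 8, 7338 to 11953 in the other 6, and 8306 to 19515 in wild type. Whether the share of muscle in the sampled tissue accounts for this was not tested.

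Enteric neurons and glia had 10 of 18 genes lower and none higher (median -0.99), with 15 lower under total count scaling, 6 without knockout library 4 or wild-type library 4 and 2 without the libraries with acinar RNA. Sox10, a transcription factor of glia, had 0, 0.615 and 3.22 CPM in the knockout, against 1.87, 3.02 and 5.17 CPM in wild type (-1.73 ± 0.58, adjusted p = 0.0234). Elavl4, an RNA-binding protein of neurons, had 0.754, 4.23 and 7.02 CPM in the knockout, against 5.36, 7.21 and 9.09 CPM in wild type. Vip, a neuropeptide, had 6.26, 27.7 and 52.4 CPM in the knockout, against 29.3, 44.7 and 56.2 CPM in wild type, and neither was called. In interstitial pacemaker cells 4 of 6 were lower and none higher (median -0.33), but 1 without the libraries with acinar RNA and 2 without knockout libraries 1, 3 and 8. Kit, their receptor kinase, had 32.6, 50.6 and 56.5 CPM in the knockout, against 50.4, 58.9 and 75.6 CPM in wild type (-0.34 ± 0.11, adjusted p = 0.022), a call lost without wild-type library 7 (adjusted p = 0.0519), and Ano1, their chloride channel, had 285, 379 and 462 CPM in the knockout, against 326, 373 and 457 CPM in wild type and was not called, while total count scaling gave -0.22 (adjusted p = 0.0478). The fibroblast and matrix list held its falls better, with 21 of 23 lower and none higher (median -0.88), 20 without knockout libraries 1, 3 and 8 and 12 without those with acinar RNA. Col1a1, Col3a1 and Dcn, collagens and a proteoglycan of connective tissue, fell by 1.004 ± 0.27, 0.88 ± 0.23 and 0.74 ± 0.18 (adjusted p = 0.00711, 0.00485 and 0.00279). Col3a1 had 121, 369.5 and 528 CPM in the knockout, against 478, 627 and 837 CPM in wild type. Matrix proteases and inhibitors were 4 of 13 higher and 4 lower (median 0.28), against 22.6% and 21.3% of all genes. The higher count was 2 without knockout library 8 or wild-type library 4 or in DESeq2. It was 1 without knockout libraries 1, 3 and 8 or in voom, and 0 on log2(TPM + 1). Mmp10, a stromelysin, had 0.0443, 0.829 and 38.9 CPM in the knockout, against 0.15, 0.618 and 1.26 CPM in wild type (2.95 ± 1.02, adjusted p = 0.0275), which rested on library 8, and without it the log2 fold change was 0.55 (adjusted p = 0.415), and without wild-type library 4 the adjusted p was 0.0516. Mmp3, a related stromelysin, had 0.514, 2.92 and 14.5 CPM in the knockout, against 1.37, 2.4 and 3.3 CPM in wild type. Timp1, an inhibitor of these proteases, had 0.477, 1.13 and 2.38 CPM in the knockout, against 0.503, 0.786 and 1.99 CPM in wild type, and neither was called.

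Vessel genes bear on GPR4, which is known from endothelial cells, where acid stimulates adhesion molecules through it. Of 16 endothelial genes 7 were lower and none higher (median -0.54), 4 without knockout library 4 or wild-type library 5, 3 without knockout libraries 1, 3 and 8 and 1 without the libraries with acinar RNA. Under total count scaling 12 were lower. Pecam1, an adhesion protein between endothelial cells, had 12.9, 20.2 and 27.3 CPM in the knockout, against 19.4, 29 and 33.9 CPM in wild type (-0.45 ± 0.13, adjusted p = 0.0103). Cdh5, their cadherin, had 2.72, 6.28 and 10.7 CPM in the knockout, against 6.57, 9.01 and 11.8 CPM in wild type (-0.54 ± 0.21, adjusted p = 0.0398), and was lost without any of knockout libraries 1, 3, 4, 5 and 8 and wild-type libraries 2, 4, 5 and 7 (adjusted p = 0.0517 to 0.0821). Of 8 tested genes of leukocyte adhesion none was higher and 2 were lower, near the 21.3% of all genes that were lower. The falls were Ackr1 (-1.10 ± 0.34) and Jam2 (-1.07 ± 0.33), and neither was called without the libraries with acinar RNA. Vcam1 had 9.97, 15.8 and 23.5 CPM in the knockout, against 8.23, 13.6 and 15.4 CPM in wild type (0.25 ± 0.17, adjusted p = 0.223). Icam1 had 7.67, 15.8 and 26.8 CPM in the knockout, against 7.03, 12.2 and 14.8 CPM in wild type (0.47 ± 0.20, adjusted p = 0.056), and passed without any of knockout libraries 2, 5 and 7 and wild-type library 8 (adjusted p = 0.015 to 0.0457). Sele and Selp, the selectins, were not tested and did not pass 0.823 CPM in any library.

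Gpr4 itself, the target named in the title, had 0.305, 0.985 and 2.38 CPM in the knockout, against 0.649, 1.02 and 1.51 CPM in wild type (0.05 ± 0.32, adjusted p = 0.909). The groups overlapped, and the lowest and the highest library were both from the knockout. Of 7 tested proton-sensing receptors and channels 3 were higher and 1 lower (median 0.26), against 22.6% and 21.3% of all genes. The counts were 2 and 1 under total count scaling, and 1 and 0 without the libraries with acinar RNA. Gpr65, a proton-sensing receptor of leukocytes, had 1.97, 4.23 and 4.88 CPM in the knockout, against 1.14, 1.68 and 2.79 CPM in wild type (1.01 ± 0.23, adjusted p = 0.00209). Gpr132, a relative found in macrophages and lymphocytes, had 2.35, 3.77 and 6.74 CPM in the knockout, against 0.639, 1.78 and 3.62 CPM in wild type (1.07 ± 0.31, adjusted p = 0.01), not called without the libraries with acinar RNA. Asic2 was the fall, lost without any of knockout libraries 3, 4 and 8 and wild-type libraries 3 and 4 and in both reduced sets. Gpr65 and Gpr132 rose along with the leukocyte markers above, and their level per cell was not tested.

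Prostaglandin and leukotriene genes were 4 of 15 higher and 3 lower (median 0.14), shares near those of all genes. Under total count scaling 2 were higher and 3 lower (median -0.09), and on log2(TPM + 1) 2 and 4 of 14 (median -0.15). Without wild-type library 4 there was 1 fall, and without the libraries with acinar RNA none. Pla2g2a, a secreted phospholipase with antibacterial activity, had 59.5, 328 and 539 CPM in the knockout, against 4.55, 8.5 and 13.7 CPM in wild type (5.21 ± 0.41, adjusted p = 5.80e-08) without overlap. Some mouse strains carry an inactive Pla2g2a, and the labels give no strain for either group. Ptgs2, cyclooxygenase 2, had 3.21, 5.28 and 21.8 CPM in the knockout, against 2.93, 3.46 and 6.92 CPM in wild type (0.87 ± 0.33, adjusted p = 0.0405), and was lost without any of knockout libraries 3 and 8 and wild-type libraries 1, 2, 3, 4, 5, 6 and 8 (adjusted p = 0.0552 to 0.104), with a log2 fold change of 0.43 without knockout library 8. Hpgd, which breaks prostaglandins down, had 96.1, 201 and 311 CPM in the knockout, against 176, 219 and 263 CPM in wild type and was not called. Hormone genes of enteroendocrine cells were 3 of 11 higher, near the 22.6% of all genes, and 1 lower (median 0.15, or -0.08 under total count scaling). Gcg, the precursor of glucagon-like peptides, had 20.9, 37.7 and 43.2 CPM in the knockout, against 12.2, 19.4 and 25.7 CPM in wild type (0.87 ± 0.14, adjusted p = 0.000116), Pyy rose by 0.39 ± 0.12 with TMM and was under 0 on the TPM scales, and Chga fell by 0.37 ± 0.13, lost without knockout library 4 or wild-type library 2 (adjusted p = 0.0562 and 0.0588) and in both reduced sets. Tuft cell genes were 2 of 8 higher (Sh2d6 and Gfi1b), near the 22.6% of all genes that were higher, and none was lower. On log2(TPM + 1) the higher count was 0 of 6. Sh2d6 lost its call without knockout library 2, and Gfi1b did not pass the filter when any of knockout libraries 2 to 9 was left out. Dclk1, a kinase of tuft cells, had 5.06, 11.4 and 20.6 CPM in the knockout, against 10.6, 12.2 and 14.5 CPM in wild type and was not called. Trpm5, their cation channel, had 0.627, 3.62 and 14.4 CPM in the knockout, against 0.551, 1.88 and 4.88 CPM in wild type and was not called.

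Lists for tissue that should be absent were read as a check. Of the 3 tested small intestine genes all were higher, Alpi (2.95 ± 0.59), Fabp6 (2.25 ± 0.44) and Slc5a1. Acinar markers passed the filter in 3 of 10 genes with none called; all 3 were called higher without wild-type library 5 and in DESeq2. Squamous markers had 1 of 3 lower (Lor), hepatocyte markers 1 of 3 lower (Alb, which rested on wild-type library 5 at 269 CPM and had a log2 fold change of -1.19 without it, and was not called without the libraries with acinar RNA), adipocyte markers 0 of 6 and erythroid markers 0 of 6 (1 higher without knockout library 3). Skeletal muscle markers had 1 of 3 higher (Acta1) and 2 lower, 1 of them lost under 9 of the omissions. A second squamous gene was lower without knockout library 4 or 5 or wild-type library 1, 3 or 8, and a second hepatocyte gene without wild-type library 4 or 6. Of 4 Y-linked genes Eif2s3y was higher, joined by another without knockout library 5, 6 or 7 or wild-type library 8, and Ddx3y had 42.5 CPM or more in each library while Xist did not pass 0.470 CPM in any.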

How the data were processed

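RNA from mouse distal colon was sequenced after poly(A) selection, per the labels' protocols. The submitters' processing notes name cutadapt 3.7, STAR 2.7.8a, RSEM 1.3.3 and DESeq2 1.30.1, and the build mm10, without roles or order; whether counting used strand is not given in the sources used here. Per-gene tables hold estimated counts and TPM that the authors deposited, and 17.1% of the counts above 0 were not whole. Counts were rounded, and genes were named with GENCODE M21 (50376 of 50600 identifiers matched).

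The 9 knockout and 8 wild-type libraries were grouped by their labels, and the labels number no pairs. Counts were tested with edgeR 4.0.16 (TMM scaling, filterByExpr, robust quasi-likelihood fit; R 4.3.3), with Benjamini-Hochberg adjustment over all 16321 tested genes and calls at an adjusted p under 0.05. Values after a gene are log2 fold changes, knockout over wild type, ± SE. CPM values are TMM scaled. TPM values as deposited were tested with limma 3.58.1 on log2(TPM + 1), and this scale understates the change of low genes. Depth was 22682491 to 31007363 counts a library; floors use 3 counts and cover counting error only. In 64 comparisons of libraries within a group, chi-square over degrees of freedom was never under 8.12, so none counted as a repeat. The script was tested on simulated data.

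Alternatives were RLE and total count scaling, no filter, no robust estimates, DESeq2 1.42.0, limma voom, limma on log2(TPM + 1) and log2(TPM + 0.1), and omission of each library; 2 more, which leave out the libraries with acinar RNA (over 100 CPM) or knockout libraries 1, 3 and 8, were chosen after seeing the data. The members and the 52 gene lists were chosen with earlier results of these data known. Named were the 8 largest called rises and falls among protein-coding genes without overlap. These genes had to have a mean of at least 5 TPM in the higher group. Named too were key members of each list and up to 4 further ones, Il10 and its neighbours, and Nnt. The 10 most abundant genes of wild type were named as well. Other genes, among them those singled out as the only call of a list in a direction, were chosen after their values were seen. Values of some genes are not reported here.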

Additional observations from a re-analysis of the deposited data

Results flagged for a closer look

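Of 482 sets of values screened (a gene or list in the libraries of a group), 29 held a library that stood apart from the rest by Dixon's criterion; chance gives about 1 in 20. Knockout library 5 stood apart as the lowest in Ido1, at 15.5 CPM with the others at 65.0 to 177, in Nos2, at 25.1 CPM with the others at 181 to 697, in C3, at 49.9 CPM with the others at 183 to 275, and in Ly6a, at 379.99 CPM with the others at 683 to 1221. It was also the lowest in Ccl8, at 2.705 CPM with the others at 8.07 to 20.4, and in Iigp1, at 22.5 CPM with the others at 68.4 to 207. It was the highest knockout library in Klk15, at 14.3 CPM with the others at 1.33 to 3.99, and in Lifr, at 24.0 CPM with the others at 4.93 to 10.3, and so lay nearest to wild type in all but C3.

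Knockout library 8 stood apart as the highest in S100a9, at 137 CPM with the others at 0.0873 to 9.05, in Il1b, at 45.1 CPM with the others at 3.14 to 11.5, and in Lcn2, at 14.6 CPM with the others at 0.654 to 3.48. The same library was highest in Ptgs2, at 21.8 CPM with the others at 3.21 to 8.57, in Mmp10, at 38.9 CPM with the others at 0.0443 to 3.51, and in the mean of the matrix protease list, at 4.68 on the log2(CPM + 1) scale with the others at 2.7 to 3.55. Library 1 was highest in Cd8a, at 44.9 CPM with the others at 2.14 to 10.2. Library 9 was lowest in Zg16, at 3012 CPM with the others at 4948 to 6558. The mean of the stem cell list was lowest in library 3, at 3.59 with the others at 3.87 to 4.11. The erythroid mean was highest in library 2, at 6.50 with the others at 1.33 to 2.69.

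Among wild-type libraries, library 5 was highest in Reg3b, at 6.83 CPM with the others at 0.362 or less, and in the means of the acinar list, at 9.19 with the others at 0.842 to 1.04, and the hepatocyte list, at 5.96 with the others at 0.850 to 2.14. Wild-type library 2 was highest in S100a9, at 0.355 CPM with the others at 0.108 or less, and library 6 in Ly6g, at 148 CPM with the others at 93.6 to 108. Ctla4 was highest in library 3, at 0.646 CPM with the others at 0.0734 to 0.301, Ptgs2 in library 7, at 6.92 CPM with the others at 2.93 to 4.20, and Ces2a in library 1, at 103 CPM with the others at 76.3 to 83.8. Alb was highest in library 5, at 269 CPM with the others at 0.862 to 2.73, and Ppp1r15b was lowest in library 3, at 122 CPM with the others at 137 to 152. The interferon gamma list mean was highest in wild-type library 8, at 3.02 with the others at 2.79 to 2.88, and still below every knockout library.

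The knockout library with conflicting dose labels entered no comparison. Its interferon gamma list mean on the log2(TPM + 1) scale was 5.03, against 2.30 to 2.48 in wild type, and 3.56 to 5.56 in the 9 knockout libraries.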

How the results depend on the processing

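With TMM scaling 3685 genes were higher and 3484 lower. The higher count was 1858 under total count scaling, 1252 on log2(TPM + 1), 1238 on log2(TPM + 0.1) and 1261 on log2(TPM + 1) without a filter, and the lower count was 6771, 7064, 7047 and 7397 in the same order; scaling removes the TMM factors, which differ between the groups. Without the libraries with acinar RNA, 2104 genes were lower, with fewer libraries in the fit. Omitting each library in turn gave 6227 to 7588 calls, 3322 to 3843 higher and 2869 to 3745 lower. Of the 7169 calls 99.9% remained under DESeq2, 74.5% under total count scaling, 60.5% on log2(TPM + 1), 63.0% without the libraries with acinar RNA and 74.0% without knockout libraries 1, 3 and 8. Of 149 called named genes, 98 kept their call under every alternative in which they were tested. An alternative whose filter removed a gene was not counted against it. Among genes called in either fit, signs turned for Pyy (-0.0069 on log2(TPM + 0.1) and -0.00687 on log2(TPM + 1), with and without a filter), Vegfa (-0.029 and -0.028), Dnajb9 (-0.034 and -0.033), mt-Nd3 (-0.033 in each), Ano1 (-0.22 under total count scaling) and Mmp10 (-0.042 without knockout libraries 1, 3 and 8); the cause was not tested. No paired analysis was possible because the labels number no pairs of knockout and wild-type libraries. Depth limits the cytokine genes under 3 CPM, Il10 among them.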

Other observations

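Values of the library with conflicting dose labels, which has the knockout genotype, stood outside the wild-type range in most lists: over the 52 list means on the log2(TPM + 1) scale, 27 lay above that range, 11 below and 14 within. Its class II mean was 7.19, against 3.76 to 5.38 in wild type, and its cytotoxic mean was 2.43, against 0.327 to 0.805 in wild type. The neutrophil mean was 2.95, against 1.41 to 2.17 in wild type. Its smooth muscle mean of 7.23 lay below the wild-type libraries, which had 7.52 to 8.70, and inside the 9 knockout libraries, which had 5.15 to 7.82. The acinar mean was 8.47, below the highest library of each group (9.72 in the knockout).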
